A study of Mus musculus with 4 samples.

Results

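Enzymes of cyclic nucleotide and calcium-dependent kinase signalling were followed in ribosome-bound RNA from the cerebellar output nuclei (deep nuclei). The members were taken by gene symbol, with earlier results of these data known. They were all names of adenylyl cyclases, soluble guanylyl cyclase subunits, numbered phosphodiesterases and diacylglycerol kinases. Added to these were subunits of protein kinase A (PKA), protein kinase G (PKG) and protein kinase C (PKC), and calcium/calmodulin-dependent (CaM) kinases. There were 77 members among 32532 gene names, and 76 of them are reported here. The samples form 1 group of 4 libraries from untreated adult mice of the Slc17a6-TRAP line JX883, which carries the transgene Slc17a6-EGFP/Rpl10a. Each library is an immunopurified (IP) pool of 3 mice, with library numbers 1300, 1301, 1302 and 1476 for replicates 1 to 4. Exact age and sex were not given. In translating ribosome affinity purification (TRAP), only cells that carry an EGFP-tagged ribosomal protein have tagged polysomes, which antibodies to EGFP retrieve. Which cells express the transgene in this line was taken from its name alone. Input RNA, a second cell type and a treatment were not among the libraries used here, so the results are levels, ratios between members, and contrasts of single libraries with the rest.

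Cyclic AMP is made by adenylyl cyclases downstream of G proteins and calcium, and cyclic GMP by soluble guanylyl cyclase in response to nitric oxide. Phosphodiesterases break both down. Cyclic AMP frees the catalytic subunits of PKA from their regulatory subunits, cyclic GMP activates PKG, and calcium bound to calmodulin switches on the CaM kinases. Diacylglycerol, which phospholipase C makes, activates most PKC enzymes, and diacylglycerol kinases remove it. In the cerebellum these kinases are best known from Purkinje and granule cells, where PKC, PKG and CaMKII act in synaptic plasticity.

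The 4 libraries held 9621762, 10306407, 10436291 and 10988373 gene counts (replicates 1 to 4). Levels are counts per 1000000 named counts (CPM), and where genes are compared they are CPM per kilobase of exon, with the union of all annotated exons as the length. Values are mean ± SD over 4 libraries, and in lists of 4 values the order is replicates 1 to 4. Slc17a6 ranged from 2011 to 2309 CPM, and all 8 fixed markers of glutamatergic nuclear neurons reached 1 CPM in every library. The other markers of that list were less even. Lhx9 ran 148, 44.9, 46.2 and 127 CPM, Tbr1 1.25, 4.66, 11.3 and 13.7, Lhx2 62.98, 42.6, 22.3 and 18.7 and Pou3f1 11.6, 10.5, 3.16 and 1.37. The ribosomal RNA gene Rn45s took 4.99, 14.2, 13.6 and 4.92% of the counts. Markers of other cells were not even across libraries either. Summed Purkinje cell markers (11 genes; the defining Pcp2 at 0.910 to 13.002 CPM, Pcp4 at 0 in replicate 3) ran 1797, 2035, 3817 and 1558 CPM, and summed granule cell markers (9 genes, none at 0) 1009, 1490.2, 2409.5 and 1212 CPM, both highest in replicate 3. Most of the Purkinje sum there was Itpr1 (591, 796, 1738 and 417 CPM) and Car8 (173, 294, 621 and 84.6), whereas Pcp2 was highest in replicate 2 and Foxp2 lowest in replicate 3 (171, 36.2, 18.9 and 134). The 10 markers of midbrain and thalamus summed to 2549, 44.5, 101 and 19.1 CPM. Nearly all of the high sum in replicate 1 was Tcf7l2 at 2486 CPM. Without Tcf7l2 the other 9 summed to 62.6, 21.7, 58.5 and 10.6 CPM, and Gbx2 was at 0 in all libraries. Fewer cells of a type and less RNA per cell cannot be told apart in these pools.

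Of the 76 reported members, 66 reached 1 CPM in all 4 libraries (86.8%, against 34.5% of all names), and the same 66 passed the filter on low counts. The 10 below the filter were Adcy4, Adcy10, Gucy1b2, Pde4c, Pde6a, Pde6b, Pde6c, Pde9a, Pde11a and Prkch, and all of these but Pde9a and Prkch had no count in at least 1 library. Each of the 76 had a count in at least 1 library. A count of 0 allows a level of up to 0.312, 0.291, 0.287 and 0.273 CPM in these libraries, that of 3 counts, and this covers counting error only. Members together took 1.07, 0.890, 0.833 and 1.03% of the named counts.

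Adenylyl cyclases summed to 92.6, 94.9, 113 and 70.1 CPM per kilobase, below either set of PKA subunits. Adcy1 (chromosome 11, 7063489 to 7178506, plus strand), which calcium and calmodulin stimulate, led with 31.1, 30.4, 44.5 and 19.7 CPM per kilobase. Adcy9 followed at 19.3, 17.8, 32.3 and 16.2, lower than Adcy1 in 4 of 4 libraries (log2 ratio 0.55 ± 0.23). Both were highest in replicate 3 and lowest in replicate 4. Adcy2, which G protein beta-gamma subunits stimulate, stood at 15.4, 18.02, 8.67 and 18.7 CPM per kilobase and Adcy5, which calcium inhibits, at 16.4, 14.01, 13.2 and 7.93. Each was the higher in 2 libraries (0.23 ± 0.78). Adcy8, the other cyclase that is strongly stimulated by calcium, stood at 5.84 ± 1.28 CPM per kilobase, and the log2 ratio of Adcy1 to Adcy8 was 2.40 ± 0.16 with little spread. Calcium-stimulated forms (Adcy1, Adcy3, Adcy8) made 42.5 ± 5.20% of the total, beta-gamma-stimulated forms (Adcy2, Adcy4, Adcy7) 19.2 ± 7.92% and calcium-inhibited forms (Adcy5, Adcy6) 15.4 ± 3.67%.

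Adcy3 stood at 2.72 ± 0.956, Adcy7 at 1.51 ± 1.22 and Adcy6 at 1.45 ± 0.787 CPM per kilobase. Adcy5 exceeded Adcy6 in 4 of 4 libraries by a log2 ratio of 3.28 ± 0.54. Adcy7 had 2.08, 20.5, 12.8 and 5.37 CPM, lowest in replicate 1 and highest in replicate 2, without which its mean was 1.004 CPM per kilobase. Adcy4 and the bicarbonate-sensitive Adcy10 had at most 0.910 and 1.16 CPM in any library.

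Soluble guanylyl cyclase is a dimer of an alpha and a beta subunit that nitric oxide activates. Gucy1a2 (alpha) stood at 20.7, 20.5, 16.5 and 44.97 CPM per kilobase, Gucy1a3 (alpha, now named Gucy1a1) at 10.3, 13.2, 16.8 and 22.8, and Gucy1b3 (beta, now Gucy1b1) at 16.5, 17.7, 17.3 and 24.6. All 3 were highest in replicate 4. Gucy1b3 was above Gucy1a3 in 4 of 4 libraries (log2 ratio of Gucy1a3 to Gucy1b3 -0.31 ± 0.30), but with the longest transcript in 2. Gucy1a2 was above Gucy1a3 in all libraries but replicate 3 (0.65 ± 0.48), and with the longest transcript in all 4 (1.125). The summed alpha level was 1.88, 1.90, 1.92 and 2.76 times that of Gucy1b3, or 2.88, 2.86, 2.79 and 4.22 times with the longest transcript, and the other beta gene, Gucy1b2, had at most 0.0970 CPM. Downstream, Prkg1, the PKG gene known from Purkinje cells, stood at 5.43, 4.87, 6.60 and 3.01 CPM per kilobase and Prkg2 at 2.40, 3.05, 0.999 and 3.58. Prkg1 was the higher in 3 libraries and Prkg2 in replicate 4 (1.08 ± 1.24), but with the longest transcript Prkg1 was the higher in all 4 (1.60).

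Phosphodiesterases with specificity for cyclic AMP were the larger part of their family. They made 65.7 ± 2.95% of the total over 21 genes, dual-specificity forms 30.6 ± 3.21% and forms specific for cyclic GMP 3.71 ± 2.40%. Pde4 genes alone made 51.6 ± 4.61%. Pde4a stood at 28.4, 28.5, 32.3 and 35.8 CPM per kilobase, Pde4d at 16.6, 19.9, 23.7 and 29.05 and Pde4b at 19.7, 11.8, 12.1 and 23.7. Pde4a was above Pde4d in every library (0.51 ± 0.20), but below it in every library with the longest transcript (-0.28). Pde4d was above Pde4b in all but replicate 1 (log2 ratio of Pde4b to Pde4d -0.44 ± 0.54). Pde4c had 1 count in replicate 4 and none elsewhere. Of the other cyclic AMP-specific genes, Pde8b stood at 12.5, 13.4, 11.8 and 14.2 CPM per kilobase, almost level over libraries, and above Pde8a at 0.805 ± 0.584 in 4 of 4 (log2 ratio of Pde8a to Pde8b -4.24 ± 1.04). Pde7b and Pde7a stood at 2.96 ± 1.97 and 2.33 ± 0.971 CPM per kilobase, with Pde7b highest in replicate 1.

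Pde1 enzymes, which calcium and calmodulin activate, made 17.04 ± 2.87% of the total. Pde1a stood at 16.3, 11.3, 7.78 and 19.7 CPM per kilobase, Pde1b at 11.4, 7.73, 7.55 and 6.58 and Pde1c at 0.803, 1.29, 1.97 and 0.707. Pde1a was above Pde1c in 4 of 4 libraries (log2 ratio 3.56 ± 1.26), with the smallest ratio in replicate 3. Pde2a, which cyclic GMP stimulates, stood at 8.76 ± 3.26 and Pde10a, known from striatal neurons, at 7.31 ± 1.29 CPM per kilobase. Each of these 2 was the higher in 2 libraries (0.20 ± 0.82). Pde3b and Pde3a, which cyclic GMP inhibits, stood at 1.19 ± 0.657 and 0.787 ± 0.607 CPM per kilobase, and Pde11a at 0.215 ± 0.208.

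Among cyclic GMP-specific genes, Pde5a, which Purkinje cells express, stood at 2.29, 2.66, 5.78 and 1.20 CPM per kilobase, and Pde9a at 1.26, 2.39, 2.63 and 0.154. Both were highest in replicate 3 and lowest in replicate 4. The photoreceptor genes Pde6a, Pde6b and Pde6c had at most 1.65, 0.582 and 0.910 CPM. Pde6d and Pde12 match the symbol rule but do not break down cyclic nucleotides, since Pde6d encodes a carrier of lipid-modified proteins and Pde12 an enzyme that trims RNA in mitochondria. They stood at 14.9 ± 3.31 and 1.72 ± 0.505 CPM per kilobase and are not in the sums above.

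**Figure D1:**
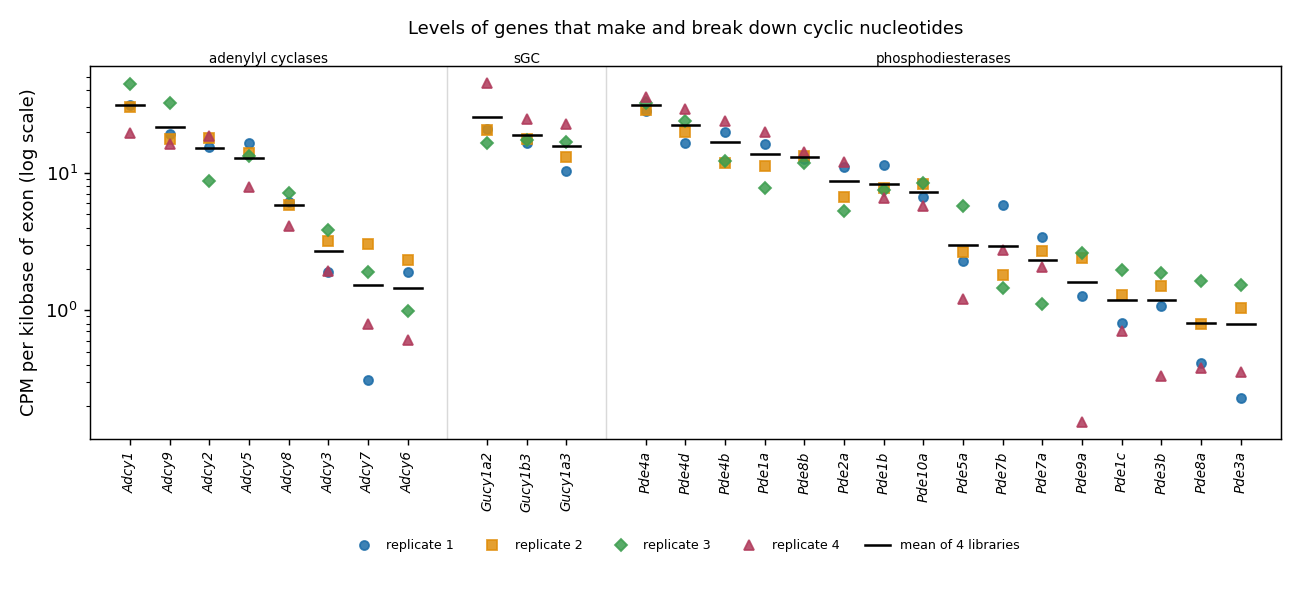
Level of each cyclase and phosphodiesterase gene in CPM per kilobase of exon (log axis), for genes with a count in all 4 libraries, with 1 symbol per library and a bar at the mean. Adcy1, Gucy1a2 and Pde4a lead their families at means of 31.4, 25.7 and 31.2.

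PKA was the most abundant of the enzyme families per kilobase. Its catalytic subunit genes summed to 298, 385, 279 and 450.5 CPM per kilobase, and its regulatory subunit genes to 371, 324, 301 and 309.9. The ratio of regulatory to catalytic subunit levels was 1.25, 0.841, 1.08 and 0.688, so neither side was the higher in all libraries. Prkaca (chromosome 8, 83972993 to 83996443, plus strand), which encodes the catalytic subunit alpha, stood at 183, 273, 194 and 355 CPM per kilobase. Prkacb, the gene of catalytic subunit beta, stood at 114, 111, 85.4 and 95.7 CPM per kilobase, below Prkaca in every library. The log2 ratio of Prkaca to Prkacb was 1.26 ± 0.49. It shrank to 0.38 with the longest transcript as length, when Prkaca was the higher in 3 of 4 libraries, and in CPM without division by length Prkacb was the higher (-0.56). The annotated exons of Prkacb span 8772 bases against 2488 for Prkaca, so the order of this pair depends on how length enters.

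Paralogues can only be counted apart where their letters differ, so the stretch around the longest coding run that both catalytic subunits share is shown. Capitals in the second line mark bases that differ from the first, and positions count from 1 at the first coding base of the longest coding transcript.
Prkaca, coding bases 183 to 262: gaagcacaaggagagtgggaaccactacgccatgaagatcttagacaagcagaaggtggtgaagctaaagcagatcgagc
Prkacb, coding bases 324 to 403: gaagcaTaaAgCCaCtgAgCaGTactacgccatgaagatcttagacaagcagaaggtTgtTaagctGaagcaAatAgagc
The pair differs at 14 of these 80 bases, and its longest identical run is 34 bases. Over all pairs within a family the longest identical coding run was 38 bases, between Prkca and Prkcb. No read length was given, and how many reads could not be told apart was not tested.

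Regulatory subunits of type I, which hold PKA mostly in the cytosol, were the larger part. Prkar1a and Prkar1b together made 85.1 ± 1.35% of the regulatory total, with a range of 83.1 to 86.1% over libraries. Prkar1a (chromosome 11, 109649405 to 109669656, plus strand) stood at 216, 155, 174 and 122 CPM per kilobase and Prkar1b at 102, 114, 83.04 and 144. Prkar1a was the higher in 3 libraries and Prkar1b in replicate 4, a log2 ratio of 0.59 ± 0.63. Of the type II genes, whose products bind anchoring proteins, Prkar2a stood at 30.5 ± 2.84 and Prkar2b at 18.2 ± 4.72 CPM per kilobase. Prkar2a was higher than Prkar2b in 4 of 4 libraries (log2 ratio 0.77 ± 0.35), and Prkar1b was higher than Prkar2a in 4 of 4 (1.84 ± 0.31).

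Prkar1a also carries a full cyclic AMP response element, the letters TGACGTCA to which the PKA target CREB is known to bind, in a promoter window of RefSeq (GRCm38.p6). The element reads the same on both strands and begins 49 bases before a listed start site, shown in capitals.
Prkar1a, chr11:109650889-109650918, plus strand: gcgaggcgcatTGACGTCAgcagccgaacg
Windows of 300 bases were found for 61 members. TGACGTCA was in 3 of their 110 windows (2.73%), 2 of Prkar1a and 1 of Prkcz, against 1.79% of all 32851 windows. By gene this was 2 of 61 members (3.28%), against 2.03% of all genes. In the other of the 2 Prkar1a windows the element begins 38 bases past the listed start site. In the Prkcz window it begins 7 bases before the start site. These shares describe letters only.

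**Figure D2:**
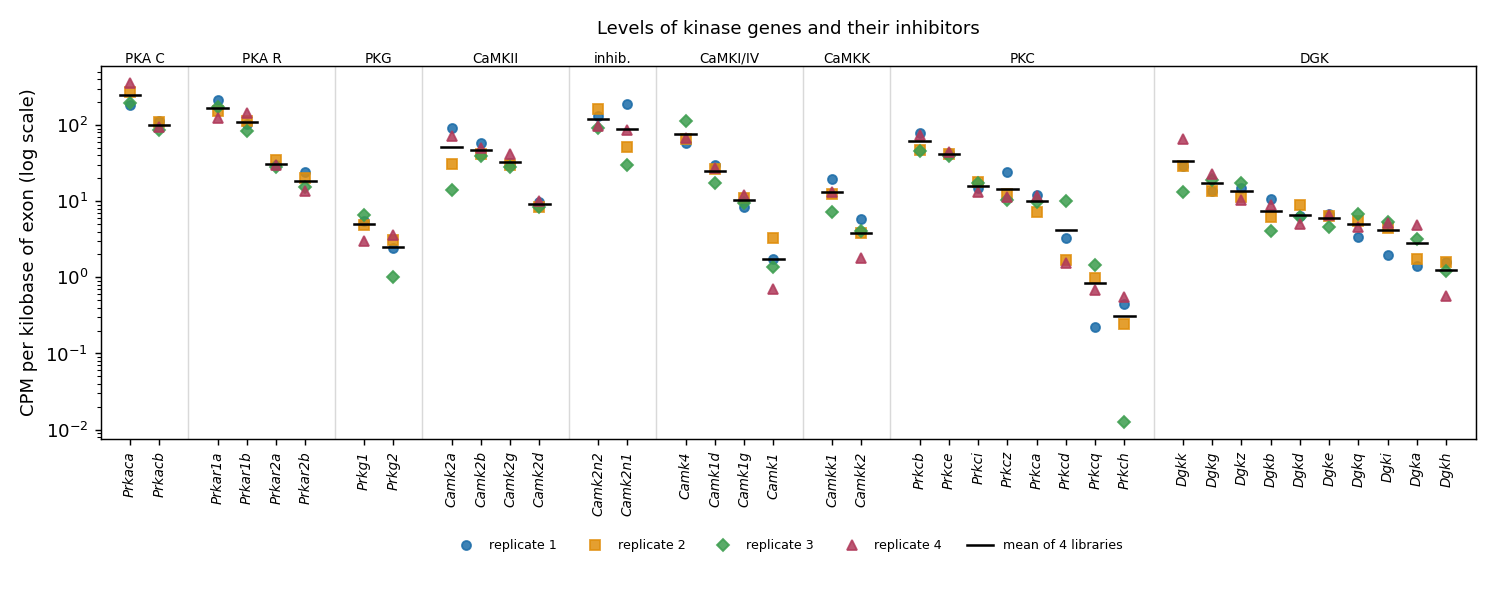
Level of each kinase, inhibitor and regulatory subunit gene in CPM per kilobase of exon (log axis), with 1 symbol per library and a bar at the mean of 4 libraries. Prkaca and Prkar1a head the plot at means of 251 and 167. Camk2n1, Camk2a, Prkcd, Prkcq and Prkch are among the genes that spread widely, and Camk2d and Prkce lie close together over libraries.

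CaMKII, the calcium/calmodulin-dependent kinase II of synapses, is built from 4 subunit genes. Camk2b stood at 57.7, 41.7, 39.4 and 49.8 CPM per kilobase, Camk2g at 32.2, 30.2, 27.98 and 42.2 and Camk2d at 9.82, 8.32, 8.42 and 10.1. Per kilobase of union exon these 3 genes kept their order in every library, with Camk2b above Camk2g by a log2 ratio of 0.51 ± 0.25 and Camk2d below Camk2g (-1.84 ± 0.16). The size of the second gap rested on length, as the log2 ratio was -0.61 with the longest transcript and -0.03 in CPM, where Camk2d was the higher in replicates 1 and 3. Camk2a, the subunit that predominates in the forebrain, did not hold a fixed place and ran 92.2, 30.7, 13.8 and 71.5 CPM per kilobase. Its level was above that of Camk2b in replicates 1 and 4 and below it in replicates 2 and 3, and the ratio of Camk2a to Camk2b was 1.60, 0.736, 0.351 and 1.44. The log2 ratio over libraries was -0.19 ± 1.0 (exact sign-flip permutation test, two-sided p = 0.875), and without replicate 3 its sign turned (0.25). The share of Rn45s was lower and the CPM of the marker Lhx9 higher in the same replicates 1 and 4. Library totals, and so the counts of Rn45s in them, cancel from the ratio of Camk2a to Camk2b. Any other part of Rn45s or Lhx9 in these values was not tested. As a share of the 4 subunits, Camk2a made 33.1 ± 14.5%, Camk2b 35.1 ± 7.10%, Camk2g 24.9 ± 6.11% and Camk2d 6.95 ± 1.91%. With the longest transcript as length, Camk2b led at 38.8 ± 5.68% and Camk2d rested at 14.1 ± 3.07%, since the annotated exons of Camk2d run to 22493 bases and its longest transcript to 5524.

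The stretch around the longest coding run shared by Camk2b (chromosome 11, 5969644 to 6066362, minus strand) and Camk2g (chromosome 14, 20734875 to 20794088, minus strand) is shown with the same stretch of Camk2d (chromosome 3, 126596302 to 126846326, plus strand). Capitals mark bases that differ from Camk2b, and all 3 stretches are coding bases 287 to 366.
Camk2b: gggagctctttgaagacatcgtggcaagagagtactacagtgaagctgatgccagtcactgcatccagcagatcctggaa
Camk2g: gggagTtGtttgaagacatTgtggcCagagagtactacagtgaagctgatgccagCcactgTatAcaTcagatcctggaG
Camk2d: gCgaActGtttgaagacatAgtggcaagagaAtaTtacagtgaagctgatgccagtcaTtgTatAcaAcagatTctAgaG
Camk2g differs from Camk2b at 9 and Camk2d at 13 of these 80 bases. The longest identical run was 29 bases for Camk2b with Camk2g and 23 for Camk2b with Camk2d.

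Both genes of the small CaMKII inhibitor proteins were abundant. Camk2n2 stood at 133, 163, 90.3 and 97.6 CPM per kilobase and Camk2n1 at 190.5, 52.1, 30.3 and 85.1. Camk2n2 was within a narrow range, whereas Camk2n1 was highest in replicate 1 and lowest in replicate 3, and the libraries did not agree on the order of the pair (log2 ratio of Camk2n1 to Camk2n2 -0.73 ± 1.06, exact sign-flip permutation p = 0.375). Without replicate 1 the mean level of Camk2n1 was 55.8 CPM per kilobase in place of 89.5. The summed level of the inhibitors over that of the kinase subunits was 1.69, 1.94, 1.34 and 1.05, and with the longest transcript 0.895, 0.958, 0.632 and 0.551, so that length decided which sum was the larger.

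Camk4, whose kinase acts in the nucleus on CREB and is known from granule cells, stood at 57.98, 66.3, 113 and 68.5 CPM per kilobase and was highest in replicate 3. It headed CaMKI and CaMKIV with 66.2 ± 9.40% of their total. Camk1d stood at 25.05 ± 5.49, Camk1g at 10.2 ± 1.56 and Camk1 at 1.76 ± 1.08 CPM per kilobase, and this order held in all 4 libraries. Camk4 shares exon sequence with a gene on the opposite strand, as do 18 members in all, and the strand setting of the counting is not given. Of the kinases that activate CaMKI and CaMKIV, Camkk1 stood at 19.8, 12.4, 7.27 and 13.4 and Camkk2 at 5.80, 3.87, 4.05 and 1.77 CPM per kilobase. Camkk1 was higher in 4 of 4 libraries (log2 ratio 1.80 ± 0.85), but with the longest transcript the ratio was 0.64 and it was higher in 3.

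Camkv encodes a CaM kinase-like protein of vesicles that lacks kinase activity. No tested member had a larger spread over libraries, with 90.4, 31.4, 4.02 and 10.5 CPM, so that replicate 1 was 22.5-fold above replicate 3. Without replicate 1 the mean level was 4.07 CPM per kilobase in place of 9.06.

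Among the PKC genes described here, Prkcb and Prkce stood highest. Prkcb stood at 79.6, 46.4, 46.2 and 74.4 CPM per kilobase and Prkce at 43.00, 42.3, 39.6 and 44.3. Prkcb encodes a conventional form that needs calcium, and Prkce a form that responds to diacylglycerol without calcium. Prkce was nearly level over libraries, and Prkcb was higher in replicates 1 and 4, those with the lower share of Rn45s, than in the others. Prkcb was above Prkce in 4 of 4 libraries, by a log2 ratio of 0.50 ± 0.38 and, with the longest transcript, of 1.48. The conventional gene Prkca stood at 11.9, 7.25, 9.63 and 11.8 CPM per kilobase, below Prkcb in every library.

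The genes of the atypical forms, which need neither calcium nor diacylglycerol, were Prkci and Prkcz, which stood at 15.1, 18.02, 17.4 and 13.1 and 24.1, 12.3, 10.4 and 11.4 CPM per kilobase. Prkcz was the higher in replicate 1 and Prkci in the other 3 libraries, and the sign of their mean log2 ratio (0.20 ± 0.63) turned with the longest transcript (-0.19). Among forms of the Prkce type, Prkcd stood at 3.26, 1.68, 10.2 and 1.53 CPM per kilobase and was below Prkce in 4 of 4 libraries (log2 ratio -3.79 ± 1.32). Prkcd was highest in replicate 3, and without it the mean was 2.16 in place of 4.17 CPM per kilobase. Prkcq stood at 0.837 ± 0.522 and Prkch at 0.311 ± 0.234 CPM per kilobase, the last with 1 count in replicate 3.

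**Figure D3:**
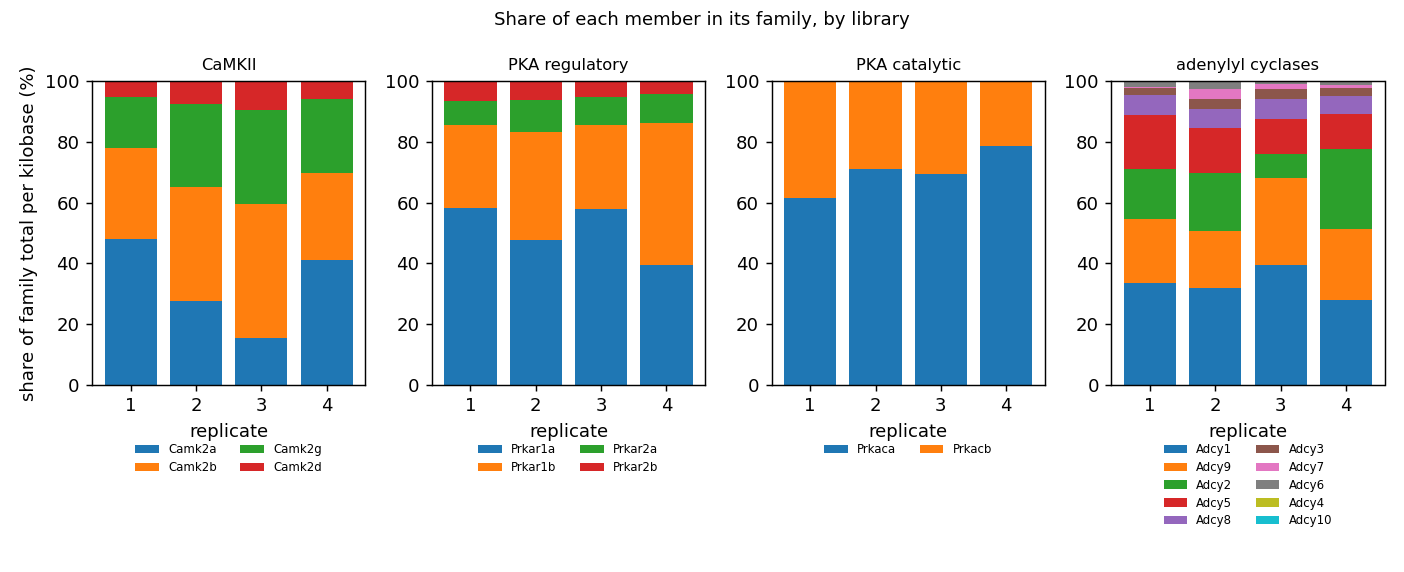
Share of each member in the summed CPM per kilobase of its family (%), 1 stacked bar per library. The share of Camk2a runs from 15.4% in replicate 3 to 48.0% in replicate 1, while type I genes Prkar1a and Prkar1b together stay between 83.1 and 86.1% of the PKA regulatory total.

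Diacylglycerol kinases, which turn diacylglycerol into phosphatidic acid, were all above the filter. The X-linked gene Dgkk (chromosome X, 6779306 to 6948363, plus strand) stood at 28.8, 28.8, 13.3 and 65.1 CPM per kilobase, highest in replicate 4 and lowest in replicate 3. Dgkg stood at 13.5, 13.8, 18.8 and 22.7 CPM per kilobase. Dgkk was the higher in 3 of 4 libraries, but with the longest transcript Dgkg was the higher in 3, and without replicate 4 the mean of Dgkk was 23.6 CPM per kilobase. Dgkz came next at 13.5 ± 3.26 CPM per kilobase, then Dgkb at 7.48 ± 2.90, and Dgkz was the higher in 4 of 4 libraries. With the longest transcript Dgkz was the higher in 3. The calcium-binding forms among these are Dgka, Dgkb and Dgkg. Dgkg exceeded Dgki in all libraries by a log2 ratio of 2.09 ± 0.50. Dgkd, Dgke, Dgkq and Dgki had mean levels from 4.22 to 6.65 CPM per kilobase, and neighbours in this order did not differ beyond their spread. Dgka and Dgkh were lowest, at 2.82 ± 1.59 and 1.24 ± 0.489 CPM per kilobase.

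Over all families, 25 pairs of related members were compared within libraries, and 16 had the same direction in all 4. An exact sign-flip permutation test over 4 libraries can give 16 sign assignments, of which 2 are as extreme as a pair with 1 direction throughout, so its two-sided p was 0.13 for such pairs (0.195 after Benjamini-Hochberg adjustment over the 25 pairs). That is the smallest p the design allows, and none could pass 0.05. The mean log2 ratio was larger than 2 SD in 13 pairs. With the longest transcript as length, 15 pairs had 1 direction in all libraries.

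Each library was then set against the other 3 with edgeR's quasi-likelihood test over 11227 genes, to ask which members set a single library apart. None of the 66 tested members passed an adjusted p of 0.05 in any library. The background was also low, with 0.00891% of all tested genes called higher and 0% lower in replicate 1, 0% in both directions in replicates 2 and 3, and 0.0445% higher and 0.00891% lower in replicate 4. At an unadjusted p under 0.05 there were 7, 0, 8 and 10 members, against 3.78, 0.392, 6.94 and 15.1% of all tested genes, or 10.6, 0, 12.1 and 15.2% of the members. DESeq2's Wald test called 0 members in replicate 1 (background 0.0881% higher and 0.0954% lower) and 0 in replicate 2 (0.00535 and 0.0214%). It called 2 members lower and 0 higher in replicate 3 (background 0.428% lower, 0.17% higher), and 2 higher and 0 lower in replicate 4 (1.13% higher, 1.97% lower). Without the filter on low counts, edgeR called 1 member higher in replicate 1 (0.144% higher, 0.0267% lower), none in replicate 2 (0% either way), 1 higher and 2 lower in replicate 3 (0.225 and 0.235%), and 2 higher in replicate 4 (1.29% higher, 0.936% lower). The median log2 fold change of the members was -0.23, -0.03, -0.10 and 0.06 in replicates 1 to 4, beside -0.07, -0.07, -0.05 and -0.05 over all tested genes. Nothing in the labels says how the pools of mice were divided, so these p-values concern the spread between the 4 libraries, with 2 residual degrees of freedom.

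The members given next were those called in some alternative fit, and they were not chosen by the size of their fold change. Other members lay as far out without a call in any fit. Among these the log2 fold change was -2.79 for Adcy7, -2.41 for Prkcq and -2.26 for Pde3a in replicate 1, and -2.04 for Pde3b in replicate 4. In replicate 3, Camk2a had a log2 fold change of -2.17 ± 0.59 (SE) (edgeR, adjusted p = 0.399), and DESeq2 called it lower (adjusted p = 0.0248). Camkv had -3.34 ± 1.02 (SE) in replicate 3 (edgeR, adjusted p = 0.538; DESeq2, adjusted p = 0.0303). Prkcd had 2.31 ± 0.56 (SE) in replicate 3 (edgeR, adjusted p = 0.334), and it passed only in edgeR without a filter on low counts (adjusted p = 0.0238). Over their alternatives the adjusted p ran from 0.0232 to 0.405 for Camk2a, 0.00614 to 0.585 for Camkv and 0.0238 to 0.424 for Prkcd (edgeR and DESeq2). Replicate 3 thus stood low for 2 genes of CaM kinase type and high for Prkcd in these alternative fits, and it had the highest summed markers in 8 of the 11 lists of other cells. These were Purkinje cells, granule cells, inhibitory nuclear neurons, molecular layer interneurons and Golgi cells, astrocytes and Bergmann glia, oligodendrocytes (476, 732, 1169.8 and 1005 CPM), their precursors and microglia. The sums of inhibitory nuclear neuron markers (7 genes, Slc6a5, Sox14 and Pax2 at 0 in some library) were 117, 183, 373 and 73.9 CPM, and those of astrocyte and Bergmann glia markers (8 genes, none at 0) 377, 538, 830.0 and 504 CPM. Whether these cells have a part in the values of Camk2a, Camkv, Prkcd, Camk4 or Pde5a was not tested.

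In replicate 4, Gucy1a2 had a log2 fold change of 1.36 ± 0.30 (SE) (edgeR, adjusted p = 0.14; DESeq2, adjusted p = 0.0117). Dgkk had 1.60 ± 0.38 (SE) (edgeR, adjusted p = 0.161; DESeq2, adjusted p = 0.0172), and edgeR also called it against 2 libraries, at an adjusted p = 0.0386 with replicate 2 left out and 0.0411 with replicate 3 left out. Over all alternatives the adjusted p ran from 0.00561 to 0.212 for Gucy1a2 and 0.000202 to 0.162 for Dgkk (edgeR and DESeq2). Both genes were higher in replicate 4 than in each other library. Brainstem monoamine and cholinergic markers (8 genes, Dbh, Tph2, Slc6a4 and Chat at 0 in some library) summed to 14.9, 110.4, 20.6 and 116 CPM, high in replicates 2 and 4, and their part in these values was not tested.

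In replicate 1, Camk2n1 had a log2 fold change of 1.57 ± 0.47 (SE) (edgeR, adjusted p = 0.99). Against replicates 2 and 3 alone it was called higher at a log2 fold change of 2.05 (adjusted p = 0.000593). Camkv had 2.39 ± 0.76 (SE) in replicate 1 (edgeR, adjusted p = 0.99), and it was called against replicates 3 and 4 alone (adjusted p = 0.0328) and without a filter on low counts (adjusted p = 0.018). Over all alternatives the adjusted p ran from 0.000593 to 1 for Camk2n1 and 0.018 to 0.992 for Camkv (edgeR and DESeq2). Replicate 1 is also the library with Tcf7l2 at 2486 CPM, and its part in the values of Camk2n1 and Camkv was not tested.

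**Figure D4:**
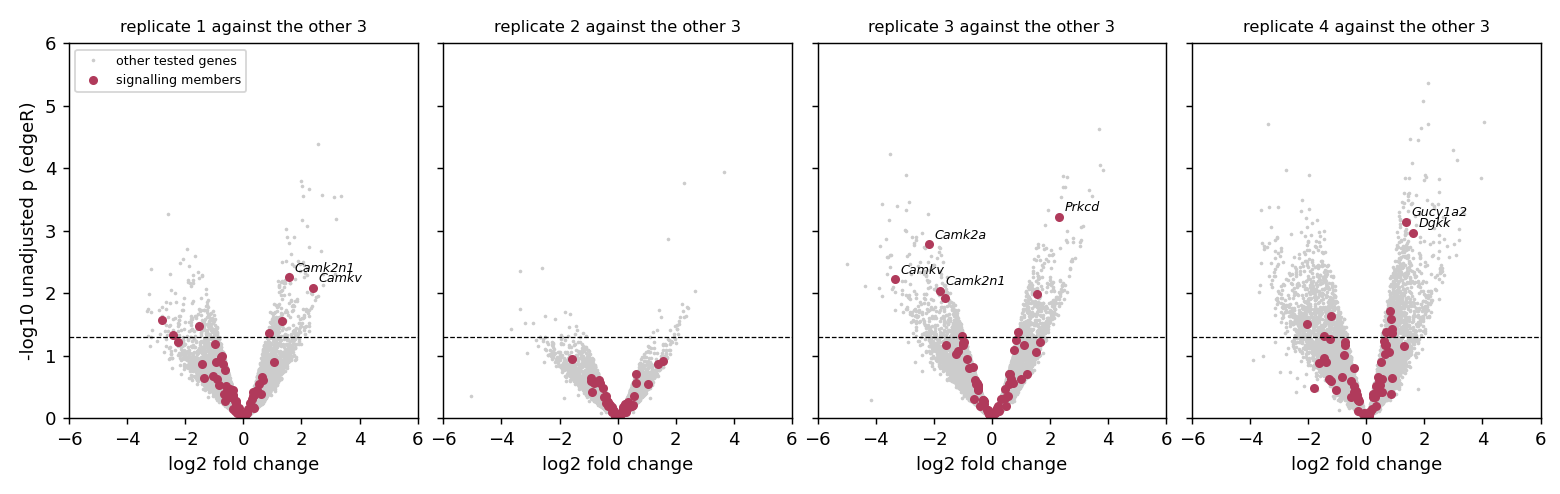
Log2 fold change of each library against the other 3 (x) and -log10 of the unadjusted edgeR p (y), with members in red over the other tested genes in grey, names beside the members highest on the y axis and a dashed line at the unadjusted threshold. Camk2a, Camkv, Camk2n1 and Prkcd stand out in replicate 3, Gucy1a2 and Dgkk in replicate 4, and none passes after adjustment.

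Members varied over libraries about as much as other genes of their level. The biological coefficient of variation, the relative spread between libraries beyond counting error, had a median of 0.325 over the 66 tested members and 0.387 over all tested genes. Under 8 mean CPM the medians were 0.585 for 2 members and 0.542 for all genes. At 8 to 32 CPM they were 0.482 for 16 members and 0.4565 for all. Within 32 to 128 mean CPM the medians were 0.322 for 26 members and 0.322 for all genes, and at 128 CPM and over 0.287 for 22 members and 0.281 for all. Camk2a and Camk2n1 were above the medians at 128 CPM and over, with 0.476 and 0.450. Prkce, Prkacb, Camk2d, Prkar2a and Camk2b were the lowest of the members, between 0.263 and 0.268. In 3 of the 66 tested members (4.55%), 1 library lay far from the other 3 by Dixon's ratio, against 7.69% of all tested genes.

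**Figure D5:**
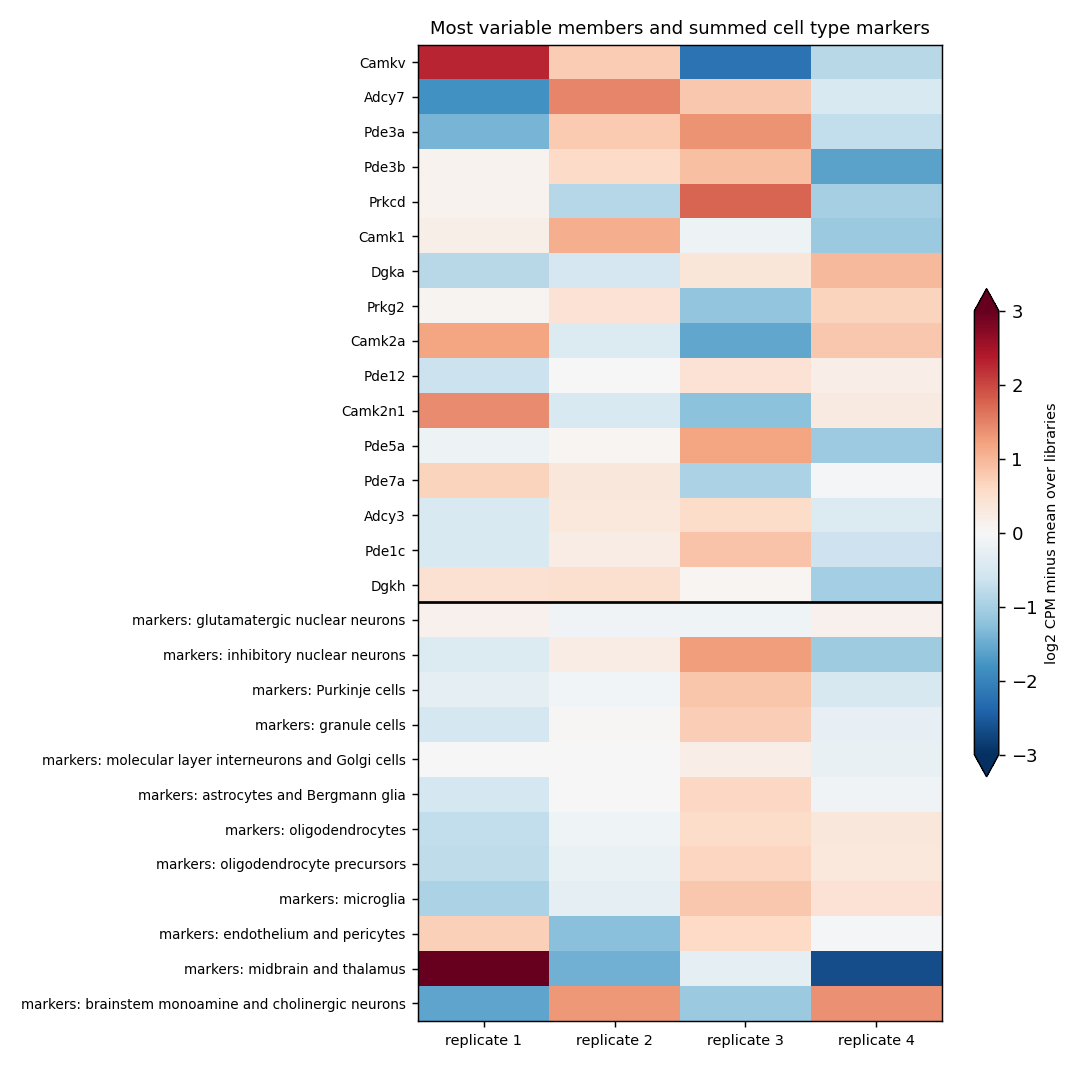
Log2 CPM minus its mean over libraries for the 16 members of largest spread among those with a mean of at least 10 CPM (upper rows) and for summed cell type markers (lower rows), by library. Camkv is high in replicate 1 and low in replicate 3, Prkcd and Pde5a are high in replicate 3, and marker sums of Purkinje and granule cells are highest in replicate 3.

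Partners of these enzymes were taken from 6 lists. None of their genes was called in any library by edgeR, over 80 tested genes in all, against the background given above. Itpr1 and Ppp1r17 are also Purkinje markers here, and Chn2 a granule cell marker. All 11 anchoring and inhibitor genes of PKA reached 1 CPM in every library. Pkia, an inhibitor of the PKA catalytic subunit, led them at 126 ± 49.2 CPM per kilobase, and the anchoring genes Akap11 and Akap6 followed at 39.8 ± 3.48 and 25.5 ± 4.87. The mean levels of the calmodulin genes Calm2 and Calm3 were above that of every reported member at 1665 ± 629.8 and 429 ± 117 CPM per kilobase, the calmodulin-binding Gap43 stood at 260.3 ± 72.3, and 9 of 10 genes of that list reached 1 CPM in every library.

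Of 20 phosphatase genes and inhibitors, 18 reached 1 CPM in every library. Ppp3r1, the regulatory subunit of the calcium-dependent phosphatase calcineurin, led at 174 ± 54.00 CPM per kilobase, then its modulator Rcan2 at 118 ± 23.4. The phosphatase-binding spine protein gene Ppp1r9b stood at 46.8 ± 4.99 CPM per kilobase. Of 10 genes of the CREB family and its coactivators, all reached 1 CPM in every library, with Atf2 at 52.9 ± 12.9, and the coactivator genes Crebbp at 23.8 ± 3.998 and Ep300 at 19.5 ± 6.08 CPM per kilobase. Of 33 genes around phospholipase C and diacylglycerol, 26 reached 1 CPM in every library, led by Plcb4 at 50.6 ± 11.2 and the diacylglycerol-binding Chn1 at 48.5 ± 22.2 CPM per kilobase, with Itpr1 at 48.3 ± 32.2. Only 6 of 23 other effectors and particulate cyclases did so, led by the cyclic AMP sensor gene Rapgef4 at 21.3 ± 3.72 and then Rapgef2 at 13.9 ± 1.80 and Rapgef6 at 8.13 ± 3.05 CPM per kilobase.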

How the data were processed

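The deposited values are raw, whole-number read counts by gene name, in 1 file per library. Its 5 summary rows (31.3 to 43.7% of all reads counted) stayed out of totals and tests. Per the submitters' processing notes the tools were STAR 2.0.0e and HTSeq and the genome mm10; annotation and strand setting were not stated, so opposite-strand genes may share reads. No molecular identifiers were mentioned. No library repeated another, with a chi-square of 34.9 to 127 times its degrees of freedom for each pair. The members and gene lists were chosen with earlier results of these data known.

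Exon lengths and coordinates came from GENCODE release M21 (GRCm38, the assembly of mm10). All 76 members had a length, 2 through an older symbol. Rn45s, at 4.92 to 14.2% of counts, stayed in the totals. Pair ratios used counts plus 0.5 divided by length. Single-library tests used edgeR 4.0.16 in R 4.3.3 (TMM, filterByExpr, robust glmQLFit, glmQLFTest, Benjamini-Hochberg over all tested genes), checked on simulated data. DESeq2 1.42.0 and RLE scaling, no filter, other lengths and offsets, and leaving out each library were the alternatives. 1 member, its 2 pairs and 1 partner gene are not reported here, and member and list counts leave them out; fits ran over all genes. The other members are accounted for, with full values for leading members, pair genes and members called in at least 1 alternative fit, the last chosen after their values were seen, and up to 3 leading genes of each partner list. The plot of the most variable members was also chosen after seeing values.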

Additional observations from a re-analysis of the deposited data

Results flagged for a closer look

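In 7 of the 76 reported members, 1 library lay far from the other 3, with a gap to the nearest library that, over the whole range, passed Dixon's critical value for 4 values. Chance flags about 1 in 20 groups of 4. Among tested members 3 of 66 did so (4.55%), against 7.69% of all tested genes.

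Gucy1a2 stood at 299 CPM in replicate 4, against 109.6 to 138 CPM elsewhere. Gucy1b3, its beta partner, stood at 96.5 CPM in the same library, against 64.6 to 69.4 CPM. Prkcz stood at 152 CPM in replicate 1, against 66.0 to 77.9 CPM.

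The other members were at or near no counts. Adcy10 stood at 1.16 CPM in replicate 2 and at most 0.0910 CPM elsewhere, Pde6a at 1.65 CPM in replicate 2 with no count elsewhere, and Pde6c at 0.910 CPM in replicate 4 with at most 0.104 CPM elsewhere. Pde4c stood at 0.0910 CPM in replicate 4, which is 1 count, and had none elsewhere.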

How the results depend on the processing

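Pair ratios kept their sign in most settings. Dividing by no length turned 4 of 25, to 1.06 for Camk2n1/Camk2n2, 0.51 for Gucy1a3/Gucy1b3, -0.87 for Pde2a/Pde10a and -0.56 for Prkaca/Prkacb, and the longest transcript turned Prkci/Prkcz to -0.19. Offsets of 0.1 and 2 turned none.
Leaving out each library in turn gave -0.48 to 0.25 for Camk2a/Camk2b and -0.087 to 0.49 for Pde2a/Pde10a, the 2 pairs whose sign turned, without replicates 3 and 4.
With DESeq2 the number of genes that differed was 25, 5, 88 and 423 for replicates 1 to 4, in place of 1, 0, 0 and 6, and members that differed were 2 in replicate 3 and 2 in replicate 4. Without a filter on low counts there were 32, 0, 86 and 416 genes, and 1, 0, 3 and 2 members. RLE scaling changed no count. Leaving out 1 of the other libraries gave 10 to 56 genes for replicate 1, 0 to 2 for replicate 2, 1 to 20 for replicate 3 and 35 to 173 for replicate 4, and 0 to 1 members for replicates 1 and 4 and 0 for replicates 2 and 3. Each such fit has 1 library against 2, and the single library is assumed to vary like the others. The cause of these differences between settings was not tested. The longest transcript as length moved 44 of 91 member and family levels by more than their SD, library totals without Rn45s moved 6 and TMM scaling moved none. Leaving out 1 library changed the mean level by over 1.5 times in 5 tested members, Camkv, Camk2n1, Prkcd and Adcy7 as given above and Pde8a (0.528 in place of 0.805 CPM per kilobase without replicate 3). Below the filter, 7 members changed by over 1.5 times, among them Pde11a, which stood at 0.120 without replicate 1 in place of 0.215. No paired analysis was possible because the labels give 1 group only.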
